A study of Homo sapiens with 4 samples.

Results

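Transcripts of 7 matrix metalloproteinases (MMP1, MMP2, MMP3, MMP9, MMP10, MMP14 and MMP16) and of 3 of their tissue inhibitors (TIMP1, TIMP2 and TIMP3) were read in T24 cells, an established line of human bladder carcinoma. They were taken by gene name from a deposited table of 60623 genes, in which each name occurs once. The table holds 2 miR-146a-5p libraries, from cells labelled as overexpressing this microRNA and described by the study as transfected with its mimic, and 2 scramble libraries, from cells given a scramble control. Library totals were between 20290055 and 22774090 estimated counts, and separate cultures are not mentioned in the labels, so a p-value here reflects library-to-library spread that may be technical. In bulk RNA of this kind, fewer cells with a transcript and less of it per cell cannot be told apart.

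Matrix metalloproteinases are zinc-dependent enzymes that cut collagens, other matrix proteins and surface receptors. Most are secreted as inactive proenzymes and a few are anchored in the plasma membrane, where they also activate other members. TIMPs bind the active site and block it. TIMP2 has a second role, because it links the proenzyme of MMP2 to MMP14 at the cell surface, and TIMP3 is held in the matrix and also inhibits several ADAM and ADAMTS proteases. In bladder cancer this system is studied for its part in invasion.

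The labels were checked on IRAK1, a textbook target of miR-146a-5p, which had 108 and 109 CPM (counts scaled to the library total) in the miR-146a-5p libraries, against 498 and 716 CPM in the scramble libraries. Its log2 fold change was -2.50 ± 0.35 (SE) by DESeq2 (adjusted p = 5.03e-09), while edgeR gave an adjusted p of 0.728. Apart from that check, the host transcript of the microRNA, MIR3142HG, had 179 and 194 counts in the miR-146a-5p libraries, against 24 and 9 in the scramble libraries. Why this transcript differed was not tested. Of 17 bladder urothelial markers, 7 reached 1 TPM (abundance scaled by transcript length) in at least 1 library, led by the keratins KRT7, KRT8 and KRT18, while the uroplakins UPK1A, UPK1B, UPK2, UPK3A and UPK3B stayed below 1 TPM throughout. CDH1, KRT5, KRT20, TP63 and GATA3 also stayed below 1 TPM. Markers of fibroblasts, cells known to make many MMPs and TIMPs, summed to 1.83 and 3.11 TPM in the miR-146a-5p libraries, against 2.19 and 1.30 TPM in the scramble libraries. The leukocyte markers summed to 14.5 and 11.3 TPM in the miR-146a-5p libraries, against 11.1 and 14.1 TPM in the scramble libraries, most of it CD68. CD14 had 1.54 and 0.75 TPM with miR-146a-5p and 1.1 and 2.7 TPM with scramble. PTPRC did not exceed 0.12 TPM, and CD3E and MPO were at 0. The 6 endothelial markers together stayed at or below 0.65 TPM in each library.

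The miR-146a-5p libraries were close to each other and the scramble libraries were not. More than a 2-fold difference within the pair was seen in 3.06% of tested genes with miR-146a-5p and in 23.9% with scramble. The log2 CPM values correlated across genes at 0.989 within the miR-146a-5p pair and at 0.925 within the scramble pair. Scramble replicate 2 stood apart, at 0.942 and 0.936 with the miR-146a-5p libraries, whereas scramble replicate 1 stood at 0.979 and 0.981. Results are therefore given with all 4 libraries and then without each scramble library.

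The sequences that bear on these genes are the microRNA and its matches. The mature strand from RefSeq (GRCh38.p14, chr5:160485372-160485393, plus strand) is shown with its seed, positions 2 to 8, in capitals, and the matches in TIMP3 and IRAK1 are shown on the transcript strand with the matching bases in capitals. The letters searched, on that strand only, were AGTTCTCA, AGTTCTC and GTTCTCA, each stretch being counted under the longest that it holds.
hsa-miR-146a-5p: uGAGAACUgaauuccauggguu
TIMP3, 7 bases, chr22:32862246-32862252, plus strand: atacaattccaAGTTCTCgcttcctcctt
IRAK1, 8 bases, chrX:154011812-154011819, minus strand: ccggaagtcaaAGTTCTCAtggtcagaagt
IRAK1, 8 bases, chrX:154011796-154011803, minus strand: tcatggtcagaAGTTCTCAtggtgcacgag

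Coordinates of the matches, and of the genes below, are from GENCODE release 29 (GRCh38). The TIMP3 match lies at position 2869 of a 3' UTR of 3666 bases and pairs with microRNA positions 2 to 8, without the A that follows the seed match at both IRAK1 sites. The 3' UTR of MMP16, 9452 bases long, holds 1 match of 8 bases and 2 of 7 bases that pair with positions 2 to 7 and are followed by A. No match of these 3 kinds is in the annotated 3' UTR of TIMP1, TIMP2, MMP1, MMP2, MMP3, MMP9, MMP10 or MMP14 in the longest coding transcript. Among 12345 tested genes with a 3' UTR, 21.0% held at least 1 match, so a match alone is common, and 3' UTRs longer than the median of 1327 bases offer more places for one.

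The family split into 5 genes above 1 TPM in every library and 5 near zero, meaning below 1 TPM in all 4. TIMP1, TIMP2 and the membrane-anchored MMP14 were abundant, TIMP3 was intermediate and MMP16 was low. The interstitial collagenase MMP1, the gelatinases MMP2 and MMP9, and the stromelysins MMP3 and MMP10 were near zero. With all 4 libraries no gene of the family passed the test, and the clearest differences were the lower levels of TIMP3 and TIMP2 in miR-146a-5p cells.

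TIMP3 (ENSG00000100234, chr22:32801701-32863043, plus strand) had 12.5 and 12.4 TPM in the miR-146a-5p libraries, against 21.4 and 26.4 TPM in the scramble libraries. The groups did not overlap, and the miR-146a-5p pair lay close together. In estimated counts these were 991 and 908 with miR-146a-5p and 1676 and 2380 with scramble, or 45.4 ± 0.882 CPM and 89.7 ± 20.96 CPM (SD, n = 2 each), a 1.98-fold lower mean. The log2 fold change, miR-146a-5p over scramble, was -0.98 ± 0.25 (SE), lower than in all but 1.53% of the 14810 genes tested. It did not pass (edgeR quasi-likelihood test, unadjusted p = 0.0147 and adjusted p = 0.970; DESeq2 unadjusted p = 0.00443 and adjusted p = 0.604). In the authors' deposited table the gene is listed with an adjusted p of 0.614.

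TIMP2 (ENSG00000035862, chr17:78852977-78925387, minus strand) had 100.5 and 104 TPM in the miR-146a-5p libraries, against 136 and 157 TPM in the scramble libraries. Again the groups did not overlap. Its mean was 1.49-fold lower, with 268.5 ± 4.27 CPM in miR-146a-5p cells and 399.7 ± 77.7 CPM in scramble cells (SD, n = 2 each). The log2 fold change was -0.58 ± 0.20 (SE), and it did not pass either (edgeR unadjusted p = 0.0410 and adjusted p = 0.970; DESeq2 adjusted p = 1.00). The annotated 3' UTR of TIMP2 holds no seed match, while those of TIMP3 and MMP16 do. Whether a match bears on the level of either gene was not tested.

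TIMP1 (ENSG00000102265, chrX:47582313-47586789, plus strand), the most abundant of the 10 transcripts, had 314 and 290 TPM in the miR-146a-5p libraries, against 269 and 340 TPM in the scramble libraries. Both miR-146a-5p values lay between the scramble values. The log2 fold change was -0.09 ± 0.26 (SE; edgeR adjusted p = 0.972). By rank of TPM among all genes of a library, TIMP1 stood between position 347 and position 427.

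MMP14 (ENSG00000157227, chr14:22836557-22849027, plus strand), also called MT1-MMP, is the membrane-anchored enzyme that cuts fibrillar collagen and activates the MMP2 proenzyme. It had 131 and 141 TPM in the miR-146a-5p libraries, against 109.8 and 125 TPM in the scramble libraries. These TPM values did not overlap, but in CPM they did, with 281 and 279 CPM in the miR-146a-5p libraries and 229 and 299.6 CPM in the scramble libraries. The log2 fold change from the counts was 0.08 ± 0.20 (SE; edgeR adjusted p = 0.972). MMP14 made up at least 96.3% of the summed TPM of the 7 metalloproteinases in every library.

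MMP16 (ENSG00000156103), another membrane-anchored metalloproteinase, had 428 and 432 counts in the miR-146a-5p libraries, against 733 and 180 in the scramble libraries. The scramble libraries lay on either side of the miR-146a-5p pair and differed 4.14-fold in CPM. The log2 fold change was 0.02 ± 0.70 (SE; edgeR adjusted p = 0.996), so no direction can be given for this gene. CPM and TPM also differed here. In TPM the values were 2.08 and 2.26 with miR-146a-5p and 3.59 and 1.72 with scramble, because a unit of TPM corresponded to 206 and 191 counts in the miR-146a-5p libraries and to 204 and 105 counts in scramble replicates 1 and 2. The ratio of counts per TPM in scramble replicate 2 over replicate 1 was 0.513 for MMP16, against a median of 1.15 over 9959 genes with at least 100 counts in every library.

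**Figure D1:**
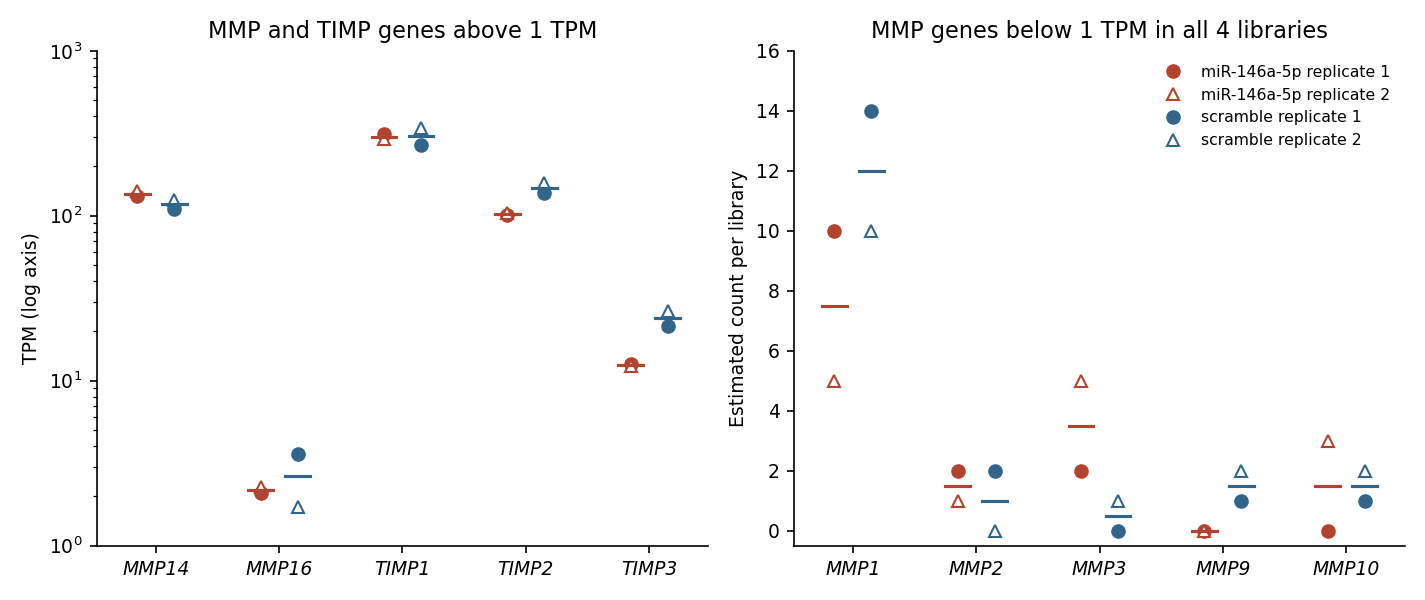
Left, TPM of the 5 MMP and TIMP genes above 1 TPM, on a log axis; right, estimated counts of the 5 MMP genes below 1 TPM in all 4 libraries. Each point is 1 library and each bar a group mean; TIMP3 and TIMP2 lie lower in both miR-146a-5p libraries, MMP16 is split between the scramble libraries, and the genes on the right stay at or below 14 counts.

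MMP1, which starts the cleavage of fibrillar collagens, had 10 and 5 counts in the miR-146a-5p libraries, against 14 and 10 in the scramble libraries, and did not exceed 0.45 TPM. It was the only near-zero gene that entered the test, with a log2 fold change of -0.57 ± 0.58 (SE; edgeR adjusted p = 0.970). MMP3, a broad-range stromelysin, had 2 and 5 counts with miR-146a-5p and 0 and 1 with scramble. The ratio of its summed counts was 7.56 per unit of depth, with an exact 95% interval from 0.971 to 341 that includes 1 and covers counting error only. MMP2 had 2 and 1 counts with miR-146a-5p and 2 and 0 with scramble. MMP10 had 0 and 3 counts in the miR-146a-5p libraries and 1 and 2 in the scramble libraries. MMP9 had 0 counts in both miR-146a-5p libraries and 1 and 2 in the scramble libraries. A count of 0 allows up to 3 counts, which is between 0.132 and 0.148 CPM at these depths, so no difference was detectable for MMP2, MMP9 and MMP10.

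Of the 10 genes, 6 passed the filter on low counts and 4 (MMP2, MMP3, MMP9 and MMP10) did not. With 4 libraries edgeR called 0 of the 6, beside 0% of all tested genes, and DESeq2 called 0 of those with an adjusted p, beside 0.324% of all genes (0.274% higher and 0.0499% lower). At an unadjusted p under 0.05, edgeR had 2 of the 6 (TIMP2 and TIMP3), both lower, beside 3.71% of all genes in either direction and 1.65% lower. DESeq2 had 1 (TIMP3). The share of all genes at that limit was not computed for DESeq2, so its count cannot be judged against one. By CPM, both miR-146a-5p libraries lay below both scramble libraries in 2 of the 6 (the same 2), beside 18% of all tested genes. They lay above both in 0, likewise beside 18%, or 36% in either direction. MMP14 lay above both by TPM only, for which no share of all genes was computed. The median log2 fold change of the 6 was -0.33, and that of all tested genes was -0.0014.

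Relative to scramble replicate 1, scramble replicate 2 was higher for TIMP1 (1.49-fold), TIMP3 (1.40-fold), TIMP2 (1.32-fold) and MMP14 (1.31-fold). The smooth trend of that difference with transcript GC content and length predicted a log2 difference of -2.63 for MMP16, at 36.4% GC, and of 0.49 for TIMP1, 0.41 for MMP14, 0.25 for TIMP2 and -0.05 for TIMP3, at GC contents between 48.7% and 58.9%. What set this trend was not tested.

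Which scramble library served as control decided the direction for 3 of the genes. Without scramble replicate 1 the log2 fold change of MMP16 was 1.38 ± 0.16 (SE), and without scramble replicate 2 it was -0.66 ± 0.13, past the threshold each time (edgeR adjusted p = 3.6e-17 and 3.2e-06). TIMP1 likewise stood at -0.35 ± 0.08 and 0.24 ± 0.09 (edgeR adjusted p = 5.4e-05 and 0.0302). MMP14 stood at -0.10 ± 0.08 (edgeR adjusted p = 0.330) without scramble replicate 1 and at 0.30 ± 0.08 (0.00312) without scramble replicate 2. TIMP3 and TIMP2 were lower with either library. So was the near-zero MMP1, at -0.29 without scramble replicate 1 and -0.78 without scramble replicate 2. TIMP3 fell by 1.20 ± 0.09 on the log2 scale without scramble replicate 1 and by 0.71 ± 0.10 without scramble replicate 2 (edgeR adjusted p = 2.9e-39 and 4.5e-12), and TIMP2 by 0.76 ± 0.08 and 0.35 ± 0.08 (2.7e-19 and 0.000386). These fits assume that the lone scramble library varies like the miR-146a-5p pair, and they called 54.9% of all genes without scramble replicate 1 and 21.7% without scramble replicate 2, with 26.4% lower and 28.5% higher in the first case and 11.7% lower and 10.1% higher in the second. Against these shares, the calls of TIMP2 and TIMP3 stand among many.

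**Figure D2:**
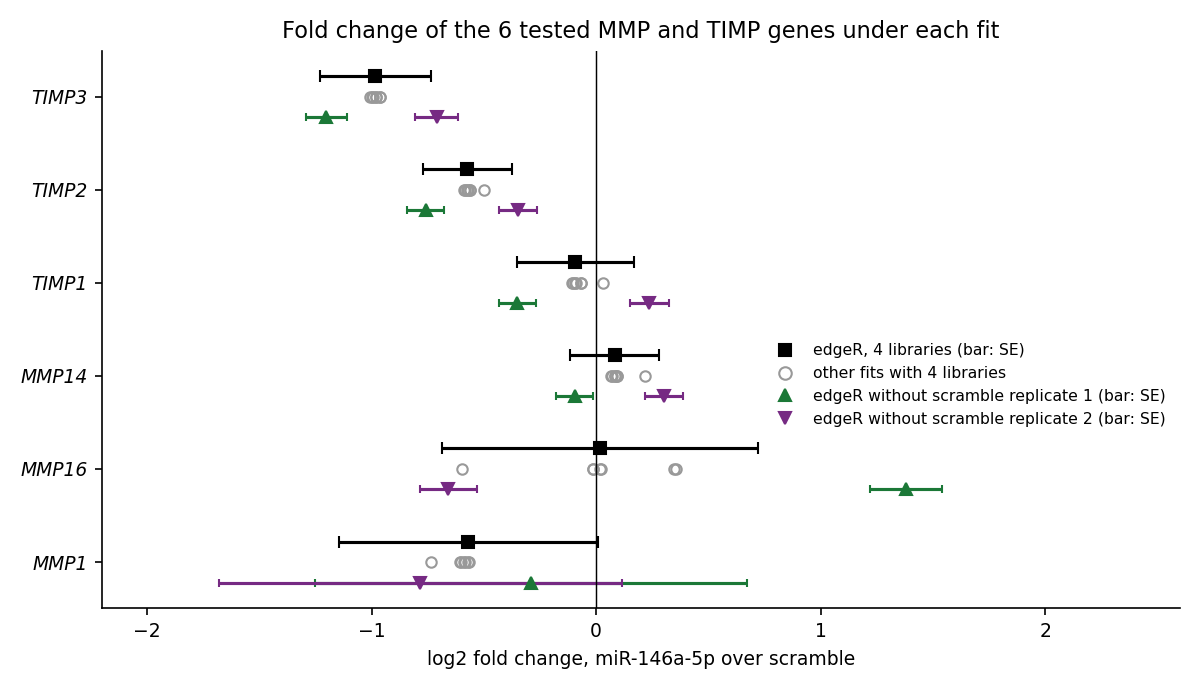
Log2 fold change of the 6 tested genes (x axis, miR-146a-5p over scramble) with all 4 libraries by edgeR (squares, bars SE), under the other fits of 4 libraries (open circles) and with 1 scramble library left out (triangles, bars SE). TIMP3, TIMP2 and MMP1 lie left of 0 throughout, while TIMP1, MMP14 and MMP16 change side with the scramble library left out. The bars of MMP1 reach 0.

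A ratio of 2 transcripts within a library does not depend on a scaling factor shared by all genes of that library. Gene-specific differences between libraries, such as the trend with GC content and length, remain in it. The following ratios were chosen after the values had been seen, and all share MMP14 as the denominator. The mean of MMP14 was itself 1.16-fold higher with miR-146a-5p by TPM and 1.06-fold higher by CPM, which makes the ratios lower. TIMP2 over MMP14 was 0.765 and 0.736 by TPM in the miR-146a-5p libraries, against 1.24 and 1.26 in the scramble libraries. The values within each pair were close, the scramble pair included, and the mean was 1.67-fold lower with miR-146a-5p by TPM and 1.58-fold lower by CPM. TIMP3 over MMP14 was 0.0954 and 0.0875 by TPM in the miR-146a-5p libraries, against 0.194 and 0.211 in the scramble libraries. Its mean was 2.22-fold lower by TPM and 2.08-fold lower by CPM. Without the denominator, the TPM means with miR-146a-5p were 1.44-fold lower for TIMP2 and 1.92-fold lower for TIMP3. For TIMP1 over MMP14 the values were 2.39 and 2.05 with miR-146a-5p and 2.45 and 2.72 with scramble, and the nearest values of the groups were closer to each other than the libraries within either group. With 2 libraries against 2, an exact two-sided permutation test cannot go below 0.333, which each of these ratios gave. How often ratios of other gene pairs separate the groups was not computed.

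**Figure D3:**
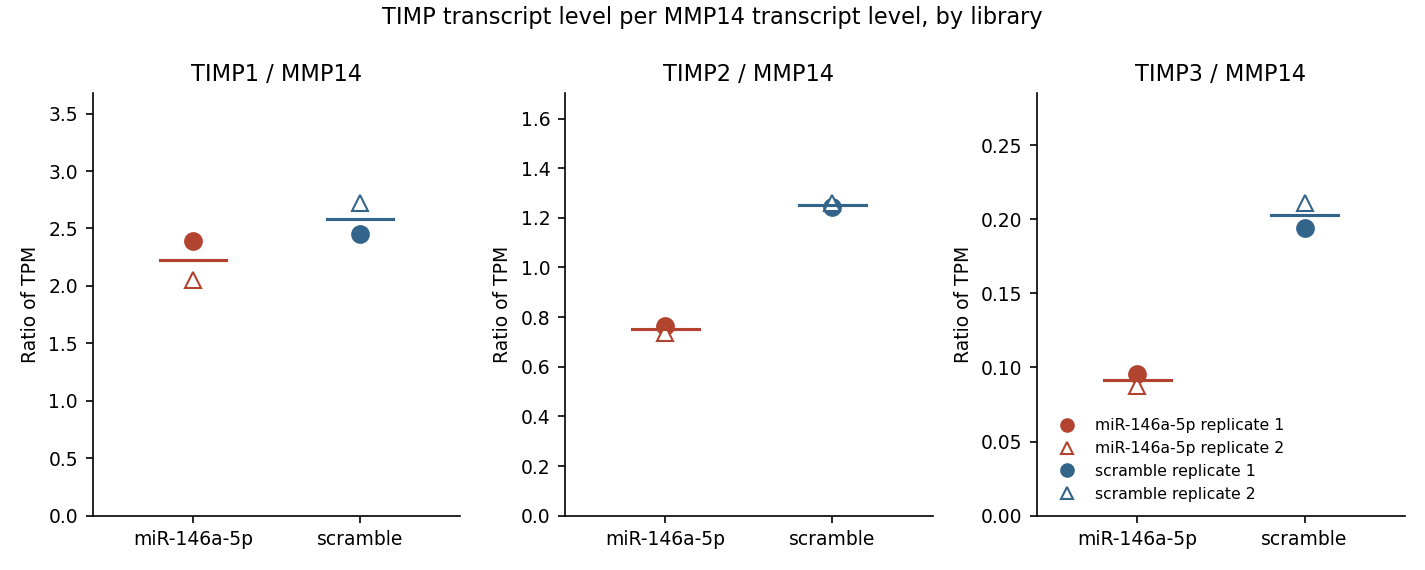
TPM of TIMP1, TIMP2 and TIMP3 divided by the TPM of MMP14 in the same library (y axes from 0, one scale for each panel); points are libraries and bars group means. The groups are far apart for TIMP2 (0.750 against 1.25 on average) and TIMP3 (0.0915 against 0.203), and close for TIMP1 (2.22 against 2.59).

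The summed TPM of the 3 inhibitors was 427 and 406 in the miR-146a-5p libraries, against 427 and 524 in the scramble libraries. That of the 7 metalloproteinases was 134 and 144 with miR-146a-5p and 114 and 127 with scramble. The inhibitor sum was 3.19 and 2.82 times the metalloproteinase sum in the miR-146a-5p libraries, and 3.74 and 4.12 times in the scramble libraries. Within the inhibitor sum TIMP1 took 72.5 ± 1.54% in miR-146a-5p cells and 64.0 ± 1.34% in scramble cells (SD, n = 2 each), and TIMP3 took 2.99 ± 0.0756% and 5.02 ± 0.0207%. Each of these shares and the ratio of the sums separated the groups, at the smallest exact permutation p of 0.333. By CPM, the groups did not overlap in 36% of all tested genes taken singly. No such share was computed for ratios or shares of a sum. Shares of a sum depend on each other, and these reuse the TIMP2 and TIMP3 levels given above. The mean TPM of TIMP1 itself was 302 with miR-146a-5p and 305 with scramble.

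TIMP1 lies inside a gene for a synapsin, SYN1, and TIMP3 inside SYN3, each on the opposite strand and with 0 shared exonic bases, and neither synapsin exceeded 3 counts in a library. An antisense RNA, AC022966.1, shares 367 exonic bases with TIMP2. It had 19.8 and 36.1 counts in the miR-146a-5p libraries, against 0 and 55.2 in the scramble libraries. CEP295NL, a protein-coding gene on the same strand as TIMP2, shares 198 exonic bases with it. That gene had 5 and 4 counts with miR-146a-5p and 7 and 9 with scramble. Both are far under the 5510 or more counts of TIMP2. MMP16 shares 118 exonic bases with the antisense AC090578.1, which had 12 and 9 counts with miR-146a-5p and 2 and 2 with scramble. No source used here says whether the counting was by strand, and how shared reads were assigned was not tested.

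The wider system was followed in 4 lists. Of 16 other MMP genes, 6 were tested and 0 passed by edgeR or DESeq2 in either direction, with a median log2 fold change of -0.51. By CPM, both miR-146a-5p libraries lay below both scramble libraries in 2 of the 6 and above both in 1, beside 18% of all tested genes in each direction. MMP15, a membrane-anchored relative of MMP14, had 1.82 and 1.76 TPM in the miR-146a-5p libraries, against 0.79 and 0.63 TPM in the scramble libraries, a log2 fold change of 1.31 ± 0.26 (SE; edgeR unadjusted p = 0.00581, adjusted p = 0.970; DESeq2 adjusted p = 0.540). Both of its miR-146a-5p values lay above both scramble values. MMP17, which is tethered to the membrane by a lipid anchor, had 6.90 and 6.29 TPM with miR-146a-5p and 8.20 and 10.3 TPM with scramble. MMP19 had 1.64 and 1.77 TPM with miR-146a-5p, against 2.94 and 2.71 TPM with scramble, and MMP11 had 1.78 and 1.48 TPM, against 2.01 and 2.75 TPM. MMP17 and MMP19 were the 2 below both scramble libraries by CPM. MMP11 overlapped by CPM and lay below both by TPM only, for which no share of all genes was computed. The matrilysin MMP7, the neutrophil collagenase MMP8, MMP26, MMP27 and MMP28 were listed at 0 TPM in every library.

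Of 11 other inhibitors and binding partners, 10 were tested and 0 passed, with a median log2 fold change of -0.05. By CPM, the miR-146a-5p libraries lay above both scramble libraries in 4 of the 10 and below both in 1, beside 18% of all tested genes each way. LCN2, a lipocalin that binds MMP9 and protects it from degradation, had 35 and 28 counts in the miR-146a-5p libraries, against 4 and 0 in the scramble libraries (edgeR unadjusted p = 0.0155, adjusted p = 0.970; DESeq2 adjusted p = 0.265). Its partner MMP9 was at 0 counts in both of those miR-146a-5p libraries. CD44, the hyaluronan receptor to which MMP14 and MMP9 can dock, had 685 and 669 TPM with miR-146a-5p and 512 and 571 TPM with scramble (log2 fold change 0.38 ± 0.13 (SE), edgeR adjusted p = 0.970). TFPI2, a Kunitz-type inhibitor of serine proteases, had 78.0 and 71.3 TPM with miR-146a-5p and 53.6 and 64.4 TPM with scramble. The tetraspanin CD63, a surface partner of TIMP1, had 930.0 and 885 TPM in the miR-146a-5p libraries, against 896 and 994 TPM in the scramble libraries. BSG, the inducer of MMP expression known as EMMPRIN, had 259 and 255 TPM with miR-146a-5p, against 262 and 351 TPM with scramble, and overlapped by CPM. For CD63 and BSG the sign of the log2 fold change differed without scramble replicate 2.

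Of 13 proteases that activate MMP proenzymes directly or through plasmin, 7 were tested and 0 passed, with a median log2 fold change of -0.08. In 3 of the 7 the miR-146a-5p libraries lay above both scramble libraries by CPM and in 0 below both, beside 18% of all tested genes each way. The plasminogen activators PLAU (117 and 113 TPM with miR-146a-5p, 82.9 and 102.5 TPM with scramble) and PLAT (62.3 and 56.9 TPM with miR-146a-5p, 39.3 and 42.9 TPM with scramble) were among the 3. So was the cathepsin CTSB, with 397 and 374 TPM in the miR-146a-5p libraries, against 250.1 and 304 TPM in the scramble libraries. CTSL had 121 and 113 TPM with miR-146a-5p and 113 and 124 TPM with scramble. PLG, the gene of plasminogen itself, did not exceed 0.11 TPM.

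Of 21 ADAM and ADAMTS proteases, several of which TIMP3 can inhibit, 15 were tested and 0 passed, with a median log2 fold change of 0.24. In 5 of the 15 the miR-146a-5p libraries lay above both scramble libraries by CPM and in 2 below both, beside 18% of all tested genes each way. ADAMTS1, a secreted protease that cuts proteoglycans, had 23.0 and 24.8 TPM in the miR-146a-5p libraries, against 44.5 and 38.4 TPM in the scramble libraries. The groups were well apart and the log2 fold change was -0.87 ± 0.17 (SE; edgeR unadjusted p = 0.00573, adjusted p = 0.970; DESeq2 adjusted p = 0.392). ADAM15, a membrane-bound sheddase, had 67.4 and 70.5 TPM with miR-146a-5p and 70.2 and 99.2 TPM with scramble, which overlap, and lay below both scramble libraries by CPM. ADAMTS2, which trims procollagen, had 0.51 and 0.52 TPM with miR-146a-5p and 0.39 and 0.40 TPM with scramble. ADAMTS13, the protease of von Willebrand factor, had 0.53 and 0.47 TPM with miR-146a-5p and 0.07 and 0.29 TPM with scramble.

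**Figure D4:**
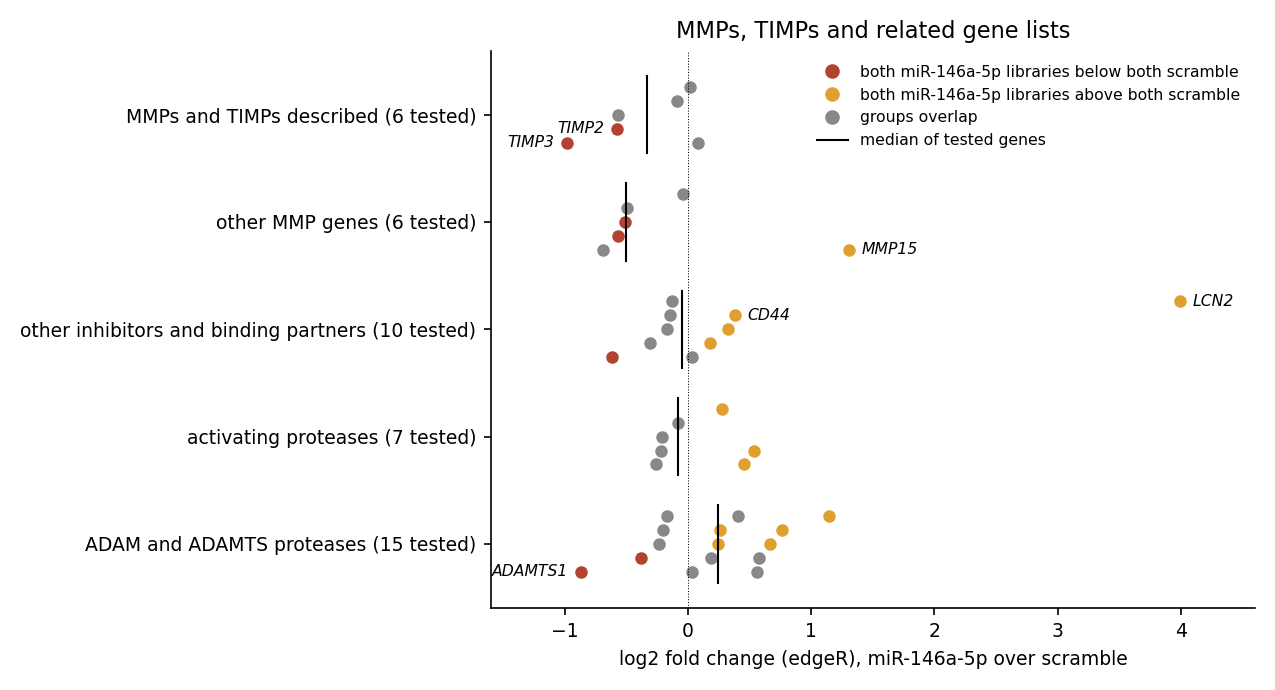
Log2 fold change by edgeR (x axis, miR-146a-5p over scramble) of every tested gene in the described MMPs and TIMPs and in 4 related lists; colour marks whether both miR-146a-5p libraries lay below both scramble libraries by CPM, above them, or overlapped, and the vertical bars are medians. Names mark genes at an unadjusted p under 0.05, none of which passed after adjustment.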

How the data were processed

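Per the labels' protocols, Trizol RNA went into TruSeq libraries. HTSeq 0.6.1, HISAT2 2.0.1, cutadapt 1.9.1, DESeq2 and the build hg19 are listed in the submitters' processing notes without their roles, and the sources used here give no annotation release. The authors' deposited table has an estimated count per gene and library, of which 34.3% were not whole in genes detected in all libraries, and TPM made by the authors. The authors' deposited fold ratio, log2 fold change, p-value and adjusted p-value run miR-146a-5p over scramble.

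Estimated counts were rounded, and 14810 genes passed edgeR's filterByExpr (minimum count 10, minimum total 15). The main test was edgeR 4.0.16's quasi-likelihood test (R 4.3.3) with TMM factors, two-sided, with Benjamini-Hochberg adjustment over all tested genes and a threshold of 0.05. DESeq2 1.42.0 and limma-voom (limma 3.58.1), other scalings, no filter, left-out libraries, a replicate block and GC and length offsets were alternatives. Standard errors of edgeR came from the F statistic. The tests were checked on simulated counts with the same dispersion for every gene and library. A scramble library standing apart from its pair was not simulated. Seed matches were looked for in each gene's longest coding transcript of GENCODE release 29 (GRCh38), a build other than the listed hg19. The authors' files give no positions used here, and which build their gene annotation follows was not tested. TPM served for levels between genes.

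The 10 genes and the 4 related lists were chosen with earlier results of these data known. From each list, genes past the threshold, the 3 with the smallest edgeR p and the 3 with the highest mean TPM were named, and genes at 0 or below the filter were added after their values were seen.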

Additional observations from a re-analysis of the deposited data

How the results depend on the processing

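With 4 libraries, 0 of the MMP and TIMP genes passed under any of the 8 alternatives run. Over all genes edgeR called 0, DESeq2 52 and edgeR with the replicate block 5. The labels do not say whether a replicate number marks a shared culture or day. Same-numbered deviations correlated at -0.145 across genes, which does not settle it, and with the numbers crossed edgeR called 0. Leaving out 1 library, edgeR called between 8 and 8421 genes and between 0 and 5 of the MMP and TIMP genes, and DESeq2, added after seeing the data, between 2 and 5349 (5349 without scramble replicate 1, 1107 without scramble replicate 2) and between 0 and 4. Over the same left-out libraries the edgeR log2 fold change ranged from -1.20 to -0.71 for TIMP3, -0.76 to -0.35 for TIMP2, -1.09 to -0.18 for MMP1, -0.35 to 0.24 for TIMP1, -0.10 to 0.30 for MMP14 and -0.66 to 1.38 for MMP16. By DESeq2 the sign also turned for MMP14 without scramble replicate 1 (-0.10), for TIMP1 without scramble replicate 2 (0.23) and for MMP16 without scramble replicate 2 (-0.67) or miR-146a-5p replicate 2 (-0.070). With 4 libraries the sign of MMP16 turned under DESeq2 (-0.0152), DESeq2 size factors (-0.0148) and GC and length offsets (-0.60), and the last also turned TIMP1 (0.028) and TFPI2 (-0.0092); the cause was not tested. Without scramble replicate 2 the sign turned for BSG, CD63, CTSL, ADAM9 and ADAM10, whose edgeR values with 1 library left out ranged from -0.58 to 0.038, -0.31 to 0.052, -0.22 to 0.0915, -0.21 to 2.44 and -0.38 to 2.35. TIMP3, TIMP2 and MMP1 kept their direction under all 15 alternatives each. A kept direction therefore does not set TIMP3 and TIMP2 apart from MMP1, which was near zero. Near zero as fewer than 10 counts in every library gave 4 genes in place of 5, without MMP1. Depth limits MMP2, MMP3, MMP9 and MMP10, which fell below the filter on low counts. Without the filter edgeR called 0 of 25804 genes, so that run says nothing particular about them.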

Other observations

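The sheddases ADAM9 and ADAM10 split the scramble libraries as MMP16 did. In the same list ADAMTS3 and ADAMTS6 were 5.58-fold and 3.44-fold higher by CPM in scramble replicate 1 than in replicate 2. More than a 2-fold difference within the scramble pair was seen in 23.9% of all tested genes, so such a split is common. ADAM9 had 132 and 138 TPM in the miR-146a-5p libraries, against 163 and 22.9 TPM in scramble replicates 1 and 2. ADAM10 had 49.1 and 58.1 TPM in the miR-146a-5p libraries, against 73.6 and 9.65 TPM in scramble replicates 1 and 2. Neither passed with 4 libraries (edgeR adjusted p = 0.970 for ADAM9 and 0.972 for ADAM10).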
